A study of Rattus norvegicus with 36 samples.

Results

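The EGR genes Egr1, Egr2, Egr3 and Egr4 were followed through messenger RNA sequencing of the rat nucleus accumbens, the part of the ventral striatum where dopamine inputs that respond to drugs of abuse end. These 4 genes were picked by Ensembl identifier from the 31546 gene IDs in the deposited tables. The rule uses no measured value, but the family was chosen with earlier results of these data known. Egr1 is ENSRNOG00000019422, Egr2 ENSRNOG00000000640, Egr3 ENSRNOG00000017828 and Egr4 ENSRNOG00000015719. The 9 animals were Sprague-Dawley rats of 8 weeks with no genetic modification named in the labels. All went through conditioned place preference, in which one compartment is paired with an injection and the time spent there is scored later. The 3 Vulnerable and 3 Non Vulnerable rats had 4 cocaine injections at 20 mg/kg into the peritoneum, alternating with saline in the opposite compartment. The 3 Saline rats had physiological serum only and the same alternation. Sessions lasted 20 min and were set 6 h apart, and preference was tested on the day after conditioning ended. The series text speaks of rats that did or did not express the preference, but no sample label ties the word Vulnerable to either, so the phenotype labels are used here. How long after the test the tissue was removed was not stated in the labels.

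EGR proteins are zinc finger transcription factors that bind GC-rich elements in promoters. Their genes are immediate early genes: calcium and ERK signalling after synaptic activity acts through serum response factor, its Elk partners and CREB at the promoters, and the transcripts rise and decay quickly. Egr1, also called zif268 or Krox-24, is widely used as a marker of neuronal activity and takes part in synaptic plasticity and memory. In the striatum Egr1 and Egr3 are known to be induced by psychostimulants in projection neurons.

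The upstream sequences are printed because serum response factor and CREB, known regulators of the family, bind short elements that can be looked for in them. The motifs searched were chosen after the promoters were seen. RefSeq (GRCr8, which may differ from the build used for counting) gave 250 bases before the annotated start for 3 of the 4 genes. Egr1 lies at chr18:26736828-26737077 on the plus strand, Egr2 at chr20:21054442-21054691 on the minus strand and Egr4 at chr4:119607818-119608067 on the minus strand. Egr3 was not printed. Sequences run 5′ to 3′ along the gene. Capitals mark matches to the CArG box, the core of the serum response element, and to CGTCA, the core of the cyclic AMP response element (here called the CRE core). Both strands were searched, and matches of these motifs do not overlap.
Egr1: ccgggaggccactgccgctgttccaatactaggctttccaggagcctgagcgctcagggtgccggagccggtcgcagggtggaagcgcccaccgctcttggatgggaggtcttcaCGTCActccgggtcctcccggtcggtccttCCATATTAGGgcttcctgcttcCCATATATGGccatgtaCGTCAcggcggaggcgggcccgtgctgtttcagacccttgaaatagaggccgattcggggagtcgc
Egr2: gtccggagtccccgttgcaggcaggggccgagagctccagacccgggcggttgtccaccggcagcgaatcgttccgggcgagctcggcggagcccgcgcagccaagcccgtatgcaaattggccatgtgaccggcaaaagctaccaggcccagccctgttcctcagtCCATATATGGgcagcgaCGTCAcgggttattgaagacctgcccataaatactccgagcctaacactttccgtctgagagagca
Egr4: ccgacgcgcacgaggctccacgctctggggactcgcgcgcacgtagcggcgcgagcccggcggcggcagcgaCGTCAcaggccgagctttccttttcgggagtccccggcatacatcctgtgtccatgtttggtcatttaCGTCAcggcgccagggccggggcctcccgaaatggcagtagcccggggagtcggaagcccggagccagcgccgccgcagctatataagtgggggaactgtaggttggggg

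Egr1 held 2 CArG boxes and 2 CRE core matches. Egr2 held 1 of each, and Egr4 held 2 CRE core matches and no exact CArG box in these 250 bases. A CArG box was counted only as CC, a run of A or T bases and GG, and inexact matches were not counted. The CArG box CCATATATGG stood 83 to 74 bases before the start in both Egr1 and Egr2. In each of these promoters a CRE core followed at 66 to 62 bases before the start. Over 33469 RefSeq promoters of the same length, 1.5% held a CArG box and 0.0209% held 2 or more. A CRE core was held by 18.2% and 2 or more matches of it by 3.98%, and 0.23% held both motifs. A full palindrome TGACGTCA gives 2 overlapping CRE core matches, 1 per strand. The 3.98% therefore includes promoters with a single palindrome. None of the 3 sequences matched the full palindrome TGACGTCA (in 1.59% of all promoters), which contains the CRE core, or the EGR site GCGNGGGCG (in 4.29%). GC content was 63.2% for Egr1, 62% for Egr2 and 68% for Egr4, against a median of 51.2%. A match of letters is a description and does not show that a factor was bound.

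**Figure D1:**
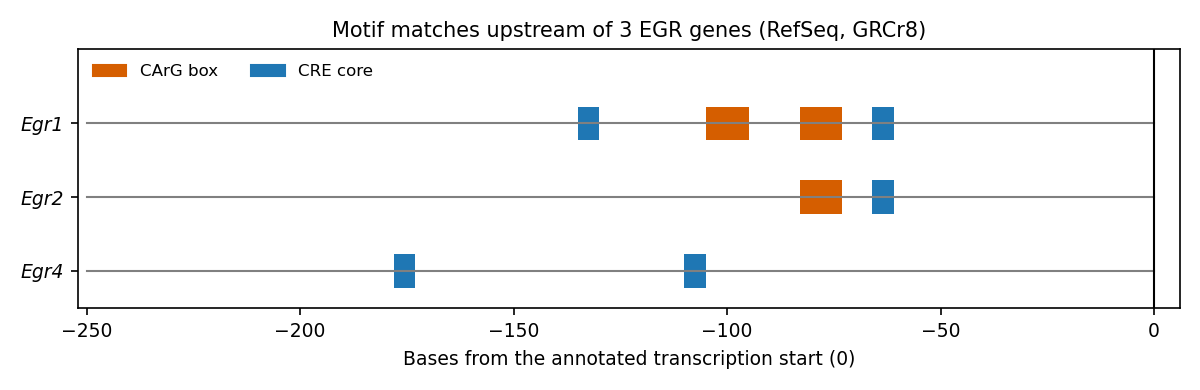
Positions of CArG box (orange) and CRE core (blue) matches in the 250 bases before the annotated start of Egr1, Egr2 and Egr4; the x axis is the distance from the start in bases. Egr1 and Egr2 share a CArG box at 83 to 74 bases and a CRE core at 66 to 62 bases before the start, while Egr4 shows only CRE core matches.

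Each rat had 4 technical replicates, which were summed, giving 41213813 to 64081679 counts per rat. The labels do not say whether these were separate libraries or repeat runs of the same library. Over the 13623 to 14317 better covered genes of a rat, technical replicates differed little beyond sampling noise, with a chi-square per degree of freedom of 1.004 to 1.02. Of 36 chi-square tests of an EGR gene in a rat, 3 had an unadjusted p under 0.05. The smallest was 0.00197, for Egr3 in Non Vulnerable rat 3. All 4 EGR genes were well covered, with 197 to 12983 counts per rat, and all 4 passed the filter on low counts. Non Vulnerable rat 1 stood apart in its most counted genes. Its 10 most counted genes took 18.2% of its counts, against 10.5% to 13.3% in the other 8 rats. Its root mean square log2 difference averaged 0.509 from Saline rats and 0.6 from the other Non Vulnerable rats. A smaller distance to Saline rats than to the own group was not particular to it. Vulnerable rats 1 to 3 averaged 0.489, 0.54 and 0.384 from Saline rats and 0.53, 0.553 and 0.424 from the other Vulnerable rats. Each comparison with Non Vulnerable rats is also given without Non Vulnerable rat 1. The IDs of the files could not be paired with gene names, apart from those of the 4 EGR genes. The tissue label, regulators such as Nab1 and Nab2, and other activity-induced genes were therefore not checked or analysed here. In bulk tissue, fewer cells of a type and less RNA per cell cannot be told apart. The extraction protocol also names the caudate putamen, and the labels do not state its share in a sample.

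Egr1 stood at 183, 236 and 194 CPM in Vulnerable rats 1 to 3, where CPM is the count relative to library size, with TMM factors between rats. It stood at 117, 131 and 76.3 CPM in Non Vulnerable rats and at 79.9, 89.0 and 131 CPM in Saline rats. Every Vulnerable rat was above all 6 other rats, while the Non Vulnerable and Saline ranges nearly coincided. Group means were 204 ± 28, 108 ± 28.4 and 100 ± 27.5 CPM in the same order of groups (SD, n = 3).

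Egr2, or Krox20, is known for hindbrain patterning and for myelination by Schwann cells, and is also induced in neurons by activity. It gave the widest separation of the family. Its levels were 29.5, 34 and 31.4 CPM in Vulnerable rats 1 to 3, against 13.4, 14.5 and 4.88 CPM in Non Vulnerable and 8.07, 7.12 and 13.1 CPM in Saline rats. The lowest Vulnerable rat was thus above the highest of the 6 other rats, Non Vulnerable rat 2. Means were 31.7 ± 2.27, 10.9 ± 5.27 and 9.42 ± 3.2 CPM in Vulnerable, Non Vulnerable and Saline rats (SD, n = 3).

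Egr3 is a plasticity gene of the same family and is known for its role in muscle spindle development. It did not separate the groups: Vulnerable rats had 63.7, 96.1 and 83.5 CPM, Non Vulnerable rats 68, 44.4 and 25.8 CPM, and Saline rats 46.7, 66.7 and 66.1 CPM. Vulnerable rat 1 lay below Non Vulnerable rat 1 and below Saline rats 2 and 3, so that all pairs of groups overlapped. Means were 81.1 ± 16.3, 46 ± 21.2 and 59.9 ± 11.4 CPM in Vulnerable, Non Vulnerable and Saline rats (SD, n = 3).

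Egr4, first described as NGFI-C, stood at 27.9, 29.4 and 27.4 CPM in Vulnerable rats. It stood at 20.1, 14 and 8.09 CPM in Non Vulnerable and at 7.26, 19.2 and 21.4 CPM in Saline rats. The 3 Vulnerable rats were nearly equal and above the 6 others, whose levels varied widely within both groups. Means were 28.2 ± 1.06, 14.1 ± 6.01 and 15.9 ± 7.59 CPM (SD, n = 3). Taking the genes together, 3 of 4 had all 3 Vulnerable rats above the 6 other rats, as did 5.15% of all 16029 genes tested.

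**Figure D2:**
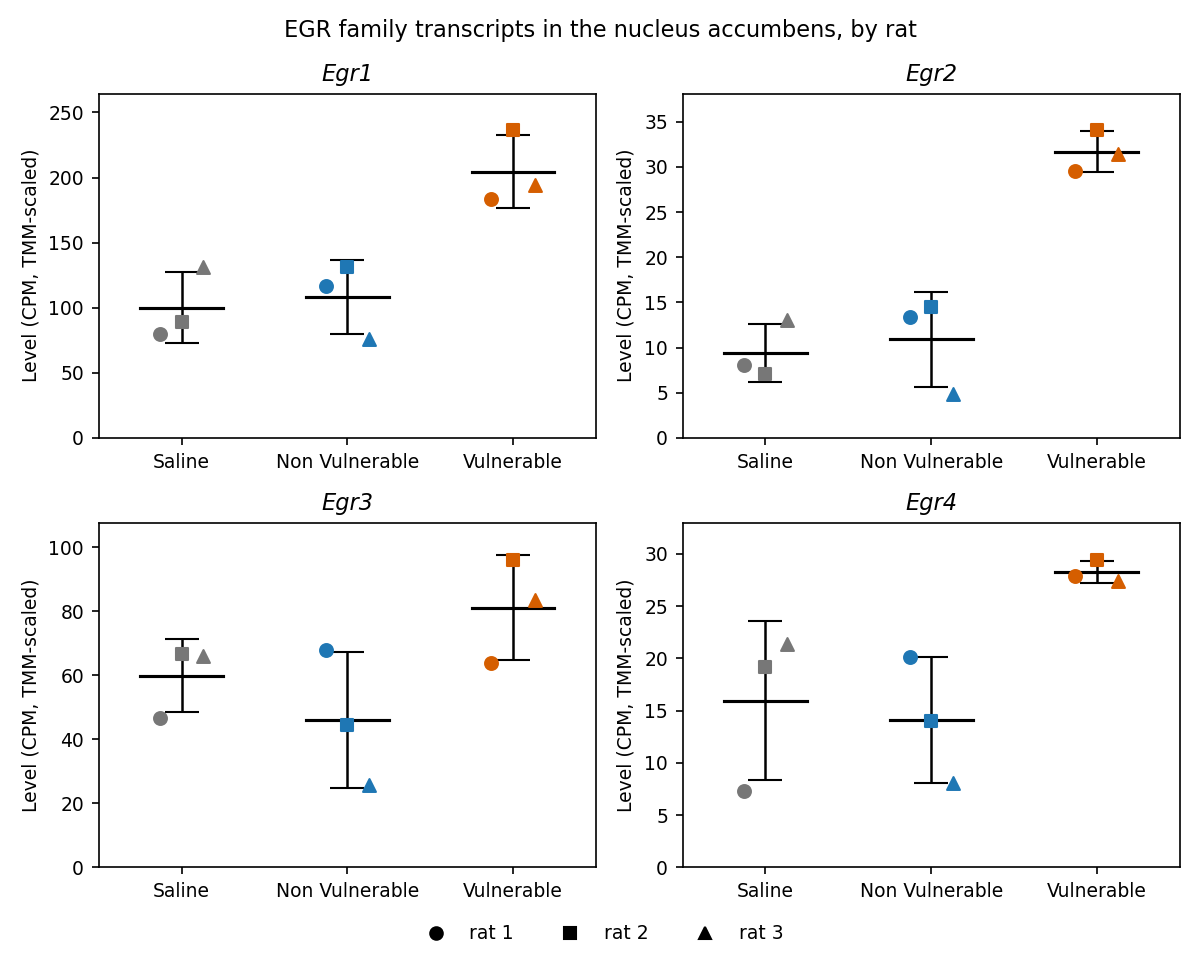
Level of each EGR gene in CPM (y axis, from 0) in Saline, Non Vulnerable and Vulnerable rats; each symbol is 1 rat, the long bar is the group mean and the error bar its SD (n = 3). For Egr1, Egr2 and Egr4 the 3 Vulnerable rats lie above the 6 others, and for Egr3 the groups overlap.

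Vulnerable rats were first set against Non Vulnerable rats, to ask what differed between animals given the same cocaine schedule. Egr1 and Egr2 were higher in Vulnerable rats. Egr1 was 1.89-fold higher (log2 fold change 0.92, SE 0.235, edgeR quasi-likelihood adjusted p = 0.0194) and Egr2 was 2.89-fold higher (log2 1.53, SE 0.369, edgeR adjusted p = 0.0158). The other two genes had positive estimates that missed the threshold of 0.05. Egr3 had a log2 fold change of 0.82 (SE 0.314, 95% interval 0.1 to 1.53, edgeR adjusted p = 0.0759). Egr4 had one of 1.00 (SE 0.4, interval 0.1 to 1.91, edgeR adjusted p = 0.0838), although its groups did not overlap. All intervals are per gene and not adjusted for the number of genes tested, so they need not match the adjusted p. The count of 2 of 4 genes called, both higher, is to be read against 15.1% of all genes called higher and 31.5% called in either direction. The median log2 fold change of the 4 genes was 0.96, against -0.035 over all genes tested. Groups did not overlap for 3 of the 4, all higher in Vulnerable rats, as for 21.8% of all genes.

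Without Non Vulnerable rat 1, all 4 genes were higher in Vulnerable rats. The log2 fold changes were then 0.99 for Egr1, 1.72 for Egr2, 1.22 for Egr3 and 1.37 for Egr4 (edgeR adjusted p = 0.0269, 0.018, 0.0115 and 0.0391), with 36% of all genes called. Egr2 passed the threshold with each of the 9 rats left out in turn, with log2 fold changes between 1.18 and 1.79 and an edgeR adjusted p between 0.0133 and 0.0477. The call of Egr1 ended without Vulnerable rat 2 (log2 0.8, edgeR adjusted p = 0.0645) and without Non Vulnerable rat 3 (log2 0.72, edgeR adjusted p = 0.0508), so 1 of 4 genes was called in either case. The share of all genes called was then 17.4% and 18.7%. Non Vulnerable rat 3 had the lowest level of all 9 rats for Egr1, Egr2 and Egr3. DESeq2 called all 4 genes, and 38.1% of all genes it tested.

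**Figure D3:**
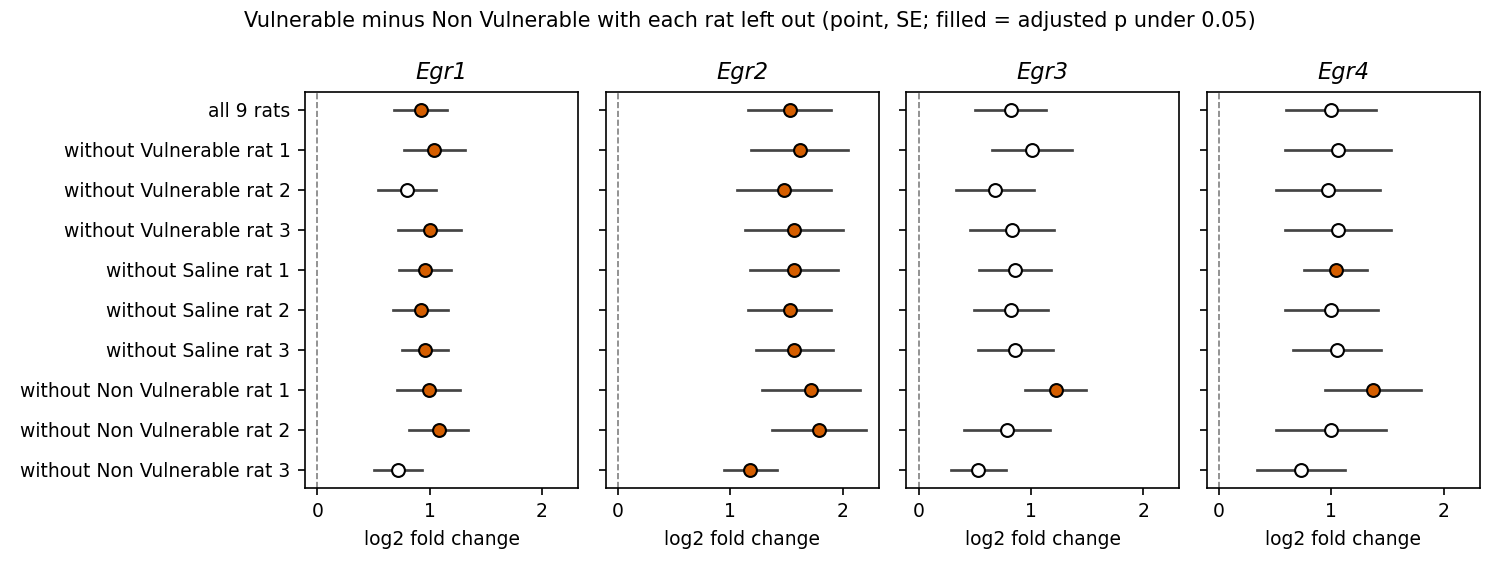
Log2 fold change of Vulnerable against Non Vulnerable rats (x axis) for each EGR gene with all 9 rats and with each rat left out (rows); bars are SE and filled points have an edgeR adjusted p under 0.05. Egr2 is filled in every row, Egr1 in all but 2, Egr3 without Non Vulnerable rat 1, and Egr4 without that rat or Saline rat 1.

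Vulnerable rats were also set beside Saline rats, a contrast in which cocaine and the selection by phenotype cannot be told apart. Here 0 of the 4 EGR genes were called. The same held for all 16029 genes in edgeR, a share of 0%, with 807 genes at an unadjusted p under 0.05. The estimate for Egr1 was 2.04-fold (log2 1.03, SE 0.236, unadjusted 95% interval 0.5 to 1.56, edgeR p = 0.00182, adjusted p = 0.897). The estimate for Egr2 was 3.36-fold (log2 1.75, SE 0.372, unadjusted interval 0.91 to 2.59, edgeR p = 0.00114, adjusted p = 0.897). Egr2 ranked 14 and Egr1 ranked 24 by p among all genes tested, and their log2 fold changes were at percentiles 99.95 and 99.38. Unadjusted, 2 of the 4 genes had an edgeR p under 0.05, against 807 of the 16029 genes tested.

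For Egr4 the log2 fold change was 0.83 (SE 0.399, interval -0.08 to 1.73, edgeR adjusted p = 0.897) and for Egr3 it was 0.44 (SE 0.312, interval -0.27 to 1.15, edgeR adjusted p = 0.908). Without Saline rat 1 these became 0.47 and 0.28. The median over the 4 genes was 0.93, against 0 over all genes. Groups did not overlap for 3 of the 4, with Vulnerable rats higher, as for 6.76% of all genes. The limma voom fit also called 0 genes. DESeq2 called 28 genes (0.18%), among them Egr1 (log2 1.04, DESeq2 adjusted p = 0.02) and Egr2 (log2 1.76, DESeq2 adjusted p = 0.00297).

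Non Vulnerable rats gave levels near those of Saline rats, and 0 of the 4 genes were called in edgeR, where 14.7% of all genes were. Log2 fold changes were 0.11 for Egr1 (SE 0.234, 95% interval -0.42 to 0.64), 0.22 for Egr2 (SE 0.369, interval -0.62 to 1.05), -0.38 for Egr3 (SE 0.314, interval -1.09 to 0.33) and -0.18 for Egr4 (SE 0.401, interval -1.08 to 0.73). The edgeR adjusted p ran from 0.44 for Egr3 to 0.796 for Egr4, and 0 of the 4 had an unadjusted p under 0.05, while 5244 of the 16029 genes tested did. DESeq2 and limma voom also called 0 of the 4, with 24% and 13.5% of all genes called. Groups overlapped for all 4 genes, while they did not for 35% of all genes. The median over the 4 genes was -0.03, against 0.021 over all genes. Without Non Vulnerable rat 1 the estimates were 0.03, 0.03, -0.79 and -0.54 for Egr1 to Egr4, and 0 of the 4 were called, with 22.3% of all genes called. Egr3 came nearest to a call there, as lower than in Saline rats (SE 0.271, edgeR adjusted p = 0.0716). The intervals reach a rise of 1.05 for Egr2 and a value of -1.08 for Egr4 on the log2 scale, so equality of the groups was not shown. Both comparisons with Saline share the Saline rats, and both with Non Vulnerable rats share those.

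**Figure D4:**
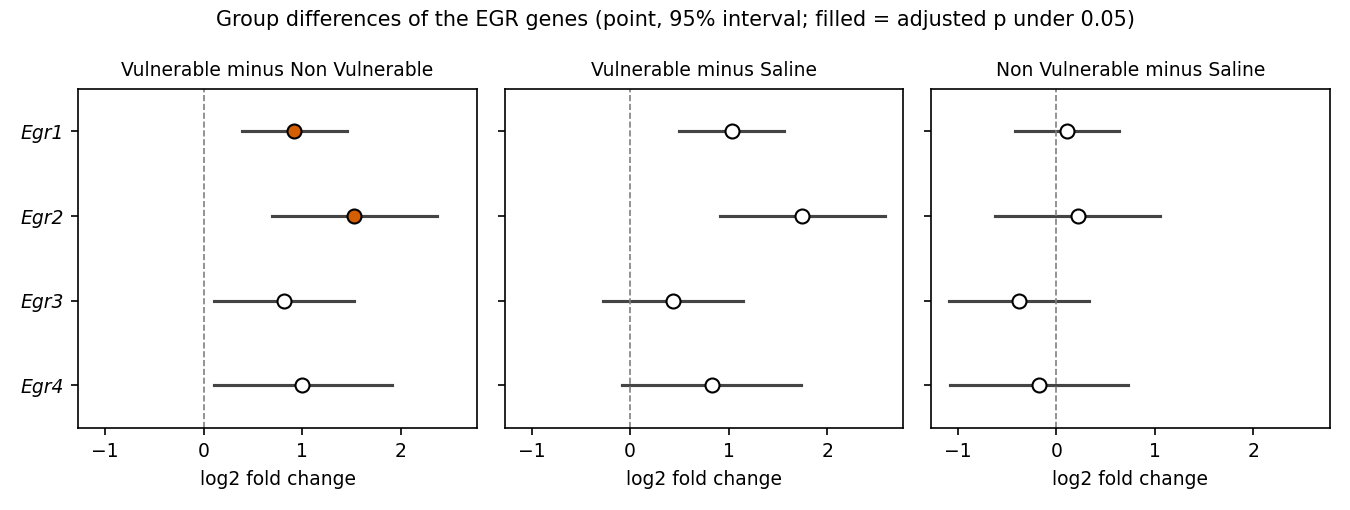
Log2 fold change (x axis) of each EGR gene in the 3 pairwise comparisons; points are edgeR estimates, lines 95% intervals, and filled points have an adjusted p under 0.05. Egr1 and Egr2 are filled in the first comparison only, at 0.92 and 1.53; estimates of Non Vulnerable against Saline rats lie between -0.38 and 0.22.

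A test for any difference among the 3 groups called Egr2 (edgeR adjusted p = 0.0159) and Egr1 (edgeR adjusted p = 0.0222), but not Egr4 (0.155) or Egr3 (0.18). Of all genes, 21.3% were called in it. Its count of 2 members became 3, with Egr3 added, without Non Vulnerable rat 1 (26.1% of all genes called). It was 0 without Vulnerable rat 2 (12.1%) or Vulnerable rat 3 (11.2%), and 1 without Saline rat 2 (13.2%). In order of mean level, each gene was highest in Vulnerable rats. Non Vulnerable and Saline rats, the neighbours below, overlapped for all 4 genes. Their difference in mean CPM was smaller than either group's SD for Egr1, Egr2 and Egr4. For Egr3 it was larger than the Saline SD and smaller than the Non Vulnerable SD.

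The family also differed in how evenly its genes were expressed within a group. In Vulnerable rats the SD of log2 CPM was 0.0536 for Egr4 and 0.103 for Egr2, below the median of 0.142 over all genes. It was 0.193 for Egr1 and 0.301 for Egr3. In Non Vulnerable rats the SD was 0.873 for Egr2, 0.701 for Egr3, 0.659 for Egr4 and 0.411 for Egr1, against a median of 0.171. In Saline rats it was 0.855 for Egr4, 0.461 for Egr2, 0.377 for Egr1 and 0.292 for Egr3, against a median of 0.137. Each SD rests on 3 rats, and differences in spread were not tested.

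Ratios between members do not depend on the scaling between rats. Egr2 gave 16.1, 14.4 and 16.2 counts per 100 Egr1 counts in Vulnerable rats. It gave 11.5, 11.1 and 6.39 in Non Vulnerable rats and 10.1, 8.0 and 9.95 in Saline rats. The Vulnerable rats were above the 6 others in this ratio. The difference in log2 ratio was 0.74 against Non Vulnerable and 0.74 against Saline rats. An exact two-sided permutation test gave p = 0.1 for both, the smallest that 3 rats against 3 allow, so a larger change of Egr2 than of Egr1 was not shown. The Egr3 ratio was lower in Vulnerable than in Saline rats, with 34.8, 40.7 and 43 counts per 100 Egr1 counts in Vulnerable rats and 58.5, 74.9 and 50.3 in Saline rats. Non Vulnerable rats, at 58.3, 33.8 and 33.7, spanned the Vulnerable range. Egr4 gave 12.5 to 15.2 counts per 100 Egr1 counts in Vulnerable rats, within the 9.08 to 21.5 of Saline rats.

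Egr1 and Egr2 gave the highest correlation of the 6 pairs of members. Over 9 rats, Egr1 and Egr2 correlated at r = 0.977 in log2 CPM (exact permutation p = 0.000243, adjusted over 6 pairs 0.00146) with a Spearman rho of 0.933 (exact permutation p = 0.00075, adjusted 0.00394). Without the 2 rats farthest from the median of Egr1, r was 0.976. Egr3 and Egr4 correlated at r = 0.859 (exact permutation p = 0.0023, adjusted 0.00604) with rho 0.733 (exact permutation p = 0.0311, adjusted 0.0467), and at 0.85 without the farthest 2 rats of Egr3. Egr1 and Egr4 correlated at r = 0.854 (exact permutation p = 0.00302, adjusted 0.00604) with rho 0.917 (exact permutation p = 0.00131, adjusted 0.00394), and Egr2 and Egr4 at 0.82 (exact permutation p = 0.00753, adjusted 0.0113) with rho 0.8 (exact permutation p = 0.0138, adjusted 0.0277). Without the 2 farthest rats these were 0.781 and 0.686.

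Egr3 followed Egr1 and Egr2 less closely. Its r was 0.745 with Egr1 (exact permutation p = 0.0161, adjusted 0.0161) and 0.762 with Egr2 (exact permutation p = 0.0125, adjusted 0.0149). The rho values were 0.683 (exact permutation p = 0.0503, adjusted 0.0604) and 0.617 (exact permutation p = 0.0857, adjusted 0.0857). Without the 2 farthest rats r fell to 0.503 and 0.455, so these relations rest partly on those rats. All values of a rat come from the same technical replicates. Vulnerable rats lay above the 6 others for Egr1, Egr2 and Egr4, so group differences enter the r over 9 rats. The permutations over 9 rats also ignored the groups. For this reason r was also taken over the 6 Saline and Non Vulnerable rats. There it was 0.934 for Egr1 and Egr2 (exact permutation p = 0.0236, adjusted 0.0917) and 0.808 for Egr3 and Egr4 (exact permutation p = 0.0306, adjusted 0.0917). The other 4 pairs gave 0.537 to 0.73, and 0 of the 6 pairs passed the threshold after adjustment. The rho of the 6 pairs ran from 0.257 to 0.771 over these rats, with adjusted exact permutation p of 0.308 to 0.658. As deviations from group means over all 9 rats, r was 0.912 for Egr1 and Egr2, 0.815 for Egr3 and Egr4, and 0.632 to 0.742 for the rest.

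**Figure D5:**
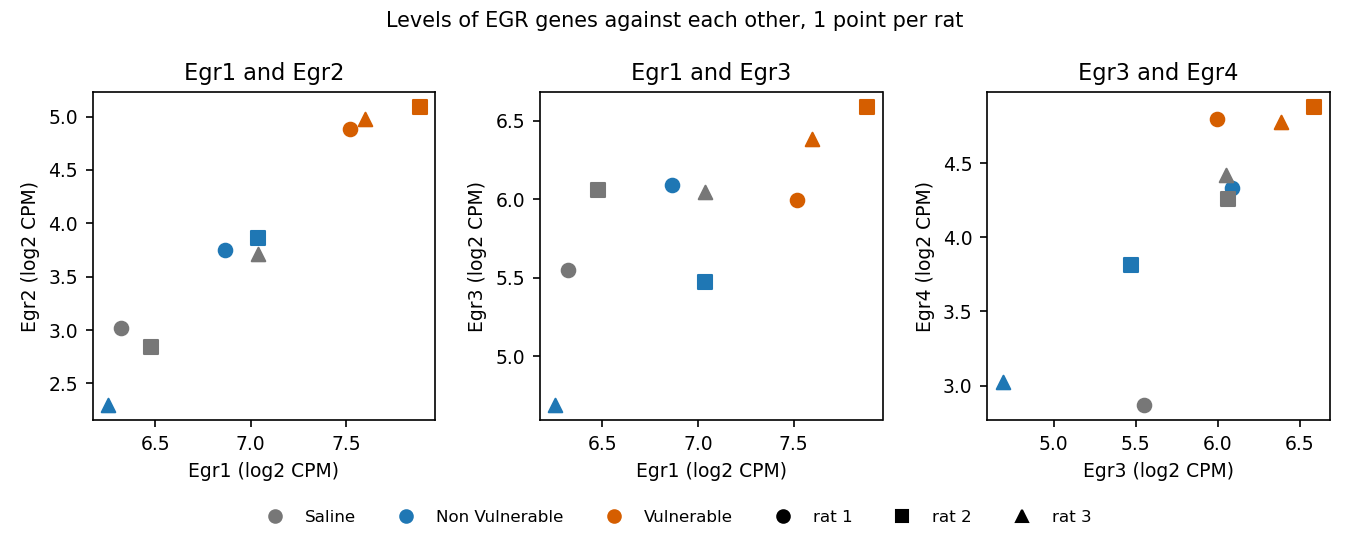
Log2 CPM of Egr2 against Egr1, Egr3 against Egr1 and Egr4 against Egr3; each symbol is 1 rat, with colour for the group and shape for the rat number. The 9 rats lie close to a line for Egr1 and Egr2 (r = 0.977) and scatter more for Egr1 and Egr3 (r = 0.745).

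Genes outside the family whose pattern was most like it were found by Pearson r over the 9 rats with the mean of the 4 standardised log2 CPM profiles. Of 13723 genes with a mean of at least 1 CPM, 31 (0.226%) had an r over 0.9 and 34 (0.248%) had one under -0.9. The closest were ENSRNOG00000008178 (r = 0.971) and ENSRNOG00000026880 (r = 0.958), for which the files give no name. Their swings were far smaller than those of the EGR genes. ENSRNOG00000008178 stood at 23.8 ± 0.523 CPM in Vulnerable, 19.8 ± 1.48 in Non Vulnerable and 20.6 ± 0.83 in Saline rats (SD, n = 3). ENSRNOG00000026880 stood at 43.4 ± 1.6, 38.6 ± 2.4 and 39.7 ± 2.86 CPM. The most opposed genes were ENSRNOG00000061337 (r = -0.959) and ENSRNOG00000058006 (r = -0.954). ENSRNOG00000058006 ran from 0.589 to 1.11 CPM in Vulnerable rats and reached 10.1 CPM in Non Vulnerable rat 3 and 7.63 CPM in Saline rat 1, the rats with the lowest mean standardised EGR level (-1.59 and -1.06).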

How the data were processed

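Messenger RNA was measured in 36 samples, 4 technical replicates of each of 9 rats. The files deposited by the authors hold 1 raw read count for each Ensembl gene ID in each sample, per the file headers. Tools named, per the submitters' processing notes, were STAR (no version), HTSeq 0.5.3 and bcl2fastq 2.17.1.14. With strand setting, build and annotation not given in the sources used here, antisense or overlapping genes could have been counted together.

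Counts were summed per rat, filtered with filterByExpr (16029 genes kept), scaled with TMM and fitted with edgeR 4.0.16 (R 4.3.3) by glmQLFit over all 9 rats, 1 coefficient per group. Benjamini-Hochberg adjustment covered all genes tested, with a threshold of 0.05. SE came from the F statistic, and 2 was the prior count for log2 CPM. Groups and rat numbers come from the labels, which count each rat as a separate animal. The fit was also run on simulated counts with known folds in Vulnerable rats and 1 spread per gene for all groups. That run is not used as support for the results. Alternatives are in the closing section and used DESeq2 1.42.0 and limma 3.58.1.

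The 4 genes were given by identifier and are all named. The members and lists were chosen with earlier results of these data known. Lists of regulators, targets, other activity-induced genes and cell type markers could not be used, because the RefSeq table paired 0 IDs of the files with a symbol. Genes most like the family were by rule the 2 of highest and 2 of lowest r. Motifs were chosen after the promoters were seen.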

Additional observations from a re-analysis of the deposited data

Results flagged for a closer look

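The change from Saline differed between Vulnerable and Non Vulnerable rats for Egr1, by 0.92 on the log2 scale, and for Egr2, by 1.53. The Saline level cancels in this difference, so it is the difference between Vulnerable and Non Vulnerable rats given above and no separate result. In both genes 3 of 3 Vulnerable rats lay above the 3 Non Vulnerable rats, as for 21.8% of all genes tested. No group was tested for outlying rats, since each has 3.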

How the results depend on the processing

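In edgeR, the count of EGR genes called for Vulnerable against Non Vulnerable rats was 2, with 31.5% of all genes called. It was 4 with DESeq2 (38.1%) and 1 to 4 with each rat left out (17.3% to 36%). It was 4 without Non Vulnerable rat 1 (36%), and 1 without Vulnerable rat 2 (17.4%) or Non Vulnerable rat 3 (18.7%). Against Saline, Vulnerable rats gave 0 called genes in edgeR (0%), 2 with DESeq2 (0.18%) and 0 with any rat left out (0%). The test of any difference gave 2 (21.3%), and 0 to 3 with each rat left out (6.61% to 26.1%). Egr4 also passed against Non Vulnerable rats with only the compared groups fitted (log2 1.05, edgeR adjusted p = 0.0445, 25% of all genes called). It passed too without Saline rat 1 (log2 1.04, edgeR adjusted p = 0.0304, 26.9%). Signs turned only for Non Vulnerable against Saline, where no gene was called. With a rat left out, the log2 fold change there ran from -0.08 to 0.34 for Egr1, from -0.04 to 0.57 for Egr2 and from -0.57 to 0.1 for Egr4. For Egr3 it stayed negative, from -0.79 to -0.09. By Pearson r, all 6 correlations between members passed over 9 rats, 4 to 6 with a rat left out, and 0 over the 6 Saline and Non Vulnerable rats, a setting added after the data were seen that has fewer samples. The causes of the other changes were not tested.

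With the rat number as a replicate block, 2 EGR genes were called for Vulnerable against Non Vulnerable rats. Over all genes 5160 (32.2%) were called in place of 5050 (31.5%). The rat numbers share no stated origin. Deviations from group means correlated at -0.137 to 0.19 for same-numbered rats and at -0.239 to 0.191 for rats of different number. The block was therefore not taken as pairing. The lowest count behind a level was 197, for Egr2 in Non Vulnerable rat 3, where counting error is largest.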
